A study of Equus caballus with 10 samples.

Results

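The genes described here are 10 genes of prostaglandin synthesis, breakdown and sensing, PLA2G4A, PTGS1, PTGS2, PTGES, PTGES2, PTGES3, PTGIS, HPGD, PTGER2 and PTGER4. They were found by gene symbol among the 29196 genes of the table, and all 10 were listed. Primary tenocytes from the superficial digital flexor tendon of 5 adult Thoroughbred or Thoroughbred-type horses, isolated post-mortem, were cultured for 14 days in 3D collagen gels. Each horse gave 1 library to each of 2 groups of 5 libraries, and the horses are called donors 1 to 5. In both groups the medium was DMEM with fetal bovine serum, and PF-06650833, which inhibits IRAK-4, a kinase of the IL-1 receptor pathway, was added daily at 100 nM. One group received PF-06650833 alone, and the other also received the inflammatory cytokine IL-1β at 17 ng/ml every 3 to 4 days. Every cell in this comparison therefore carried the inhibitor, and gels without it were not analysed here. RNA came from gels harvested together for each condition, and the donors, not the gels, are the replicates.

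Prostaglandins are lipid mediators of pain, fever and swelling. A phospholipase A2 frees arachidonic acid from membranes, the cyclooxygenases PTGS1 and PTGS2 turn it into the unstable precursor PGH2, and terminal synthases then make prostaglandin E2 (PGE2), prostacyclin and the other prostanoids. The products leave the cell, act on G protein-coupled receptors and are inactivated by a dehydrogenase. In tendon this pathway is best known as the target of non-steroidal anti-inflammatory drugs, which block the cyclooxygenases.

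The values were variance-stabilized log2 expression values, on which a gene with 0 reads has the value 3.43. Normalised counts obtained by inverting this scale are given beside them, and 1 read was worth 1.05 to 1.42 normalised counts depending on the library. Depth estimated in this way lay between 26.4 and 35.7 M reads for the libraries without IL-1β and between 26.7 and 33.4 M for those given it. Values are not corrected for gene length, so that levels of different genes are not compared. Differential expression was called in a limma fit over 17992 genes where the adjusted p was below 0.05 and the log2 fold change was 1 or more in either direction. All log2 fold changes are IL-1β plus PF-06650833 minus PF-06650833 alone.

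Of the listed tenocyte markers, 10 of 11 were detected, but tenomodulin (TNMD) was listed at 0 in all 10 libraries. Of these markers, SCX, MKX and COMP were lower with IL-1β plus PF-06650833 and 0 were higher, COMP not without donor 2 or 5 (adjusted p = 0.0509 and 0.0517 from limma). Over all tested genes 3.57% were called lower and 3.11% higher. With the donor as a block 5 of these markers were lower, the collagen genes COL1A1 and COL1A2 added (limma adjusted p = 0.0147 and 0.0169). That fit called 8.26% of all tested genes in either direction. Of the 10 tested markers, 2 (DCN and LUM) had a positive log2 fold change. DCN, which was not called, had the higher value with IL-1β in each of the 5 donors, by 0.04 to 1.99. The summed normalised counts of the listed markers ranged from 1040190 to 1646790 with PF-06650833 alone and from 339540 to 1361860 with IL-1β plus PF-06650833. Of these sums COL1A1 made up 274858 to 745803 and 102010 to 421083, and COL1A2 369520 to 566414 and 93191 to 402023. SCX and MKX were at most 4625 and 6355. Of 10 leukocyte markers, 5 were detected widely enough to be tested. The defining marker PTPRC was at 0 in 9 libraries and at 3.09 normalised counts in the other, and TYROBP was at 0 in all 10. The summed leukocyte markers ranged from 87.6 to 1836 and from 180 to 1946 normalised counts in the 2 groups, and CD14 alone reached 1682. Of the 5 tested, 1 marker, CD68, was called higher (log2 fold change 1.70, limma adjusted p = 0.00795), where 3.11% of all tested genes were. Without donor 5 CD68 was not called (adjusted p = 0.0526). Another leukocyte marker, LAPTM5, had the lower value with IL-1β in each of the 5 donors and was called lower with the donor as a block (log2 fold change -1.67, limma adjusted p = 0.0255). Of 6 tested endothelial markers 1 (ERG) and of 6 mural cell markers 3 (DES, RGS5 and CSPG4) were lower, where 3.57% of all tested genes were. RGS5 was not called without donor 1, 2 or 5 (limma adjusted p 0.0541 to 0.0658). Endothelial sums were 232 to 715 and 46.1 to 106 normalised counts, of which ERG alone made up 205 to 690 and 41.0 to 83.4, while PECAM1 and TEK were at most 18.8 and had the higher value with IL-1β in 4 of 5 donors. In the same order mural sums were 3956 to 37551 and 4651 to 13498, of which MYH11 alone made up 1102 to 32516 and 3720 to 12079. MYH11 was not called, and with IL-1β it was higher in donor 3 and lower in the other donors. Of the 6 mural markers 1, MCAM, had a positive log2 fold change. The part of these shifts in the results below was not tested, and in bulk RNA fewer cells of a type and less RNA per cell cannot be told apart.

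The question asked of these genes was how the prostaglandin pathway stood when tenocytes met IL-1β while IRAK-4 was inhibited. The phospholipase PLA2G4A, the inducible cyclooxygenase PTGS2, the inducible PGE2 synthase PTGES and the PGE2 receptor PTGER4 were higher with IL-1β plus PF-06650833, and the prostacyclin synthase PTGIS was lower. Of the 10 genes, 9 could be tested, all of them detected in all 10 libraries, and 5 were differentially expressed, 4 higher and 1 lower. Over all tested genes 6.68% were called, 3.11% higher and 3.57% lower. The same 5 genes had groups that did not overlap, as had 12.7% of all tested genes. For the 9 genes the log2 fold changes had a median of 1.21, and for all tested genes one of -0.01. The remaining gene, HPGD, was listed at 0 throughout.

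**Figure D1:**
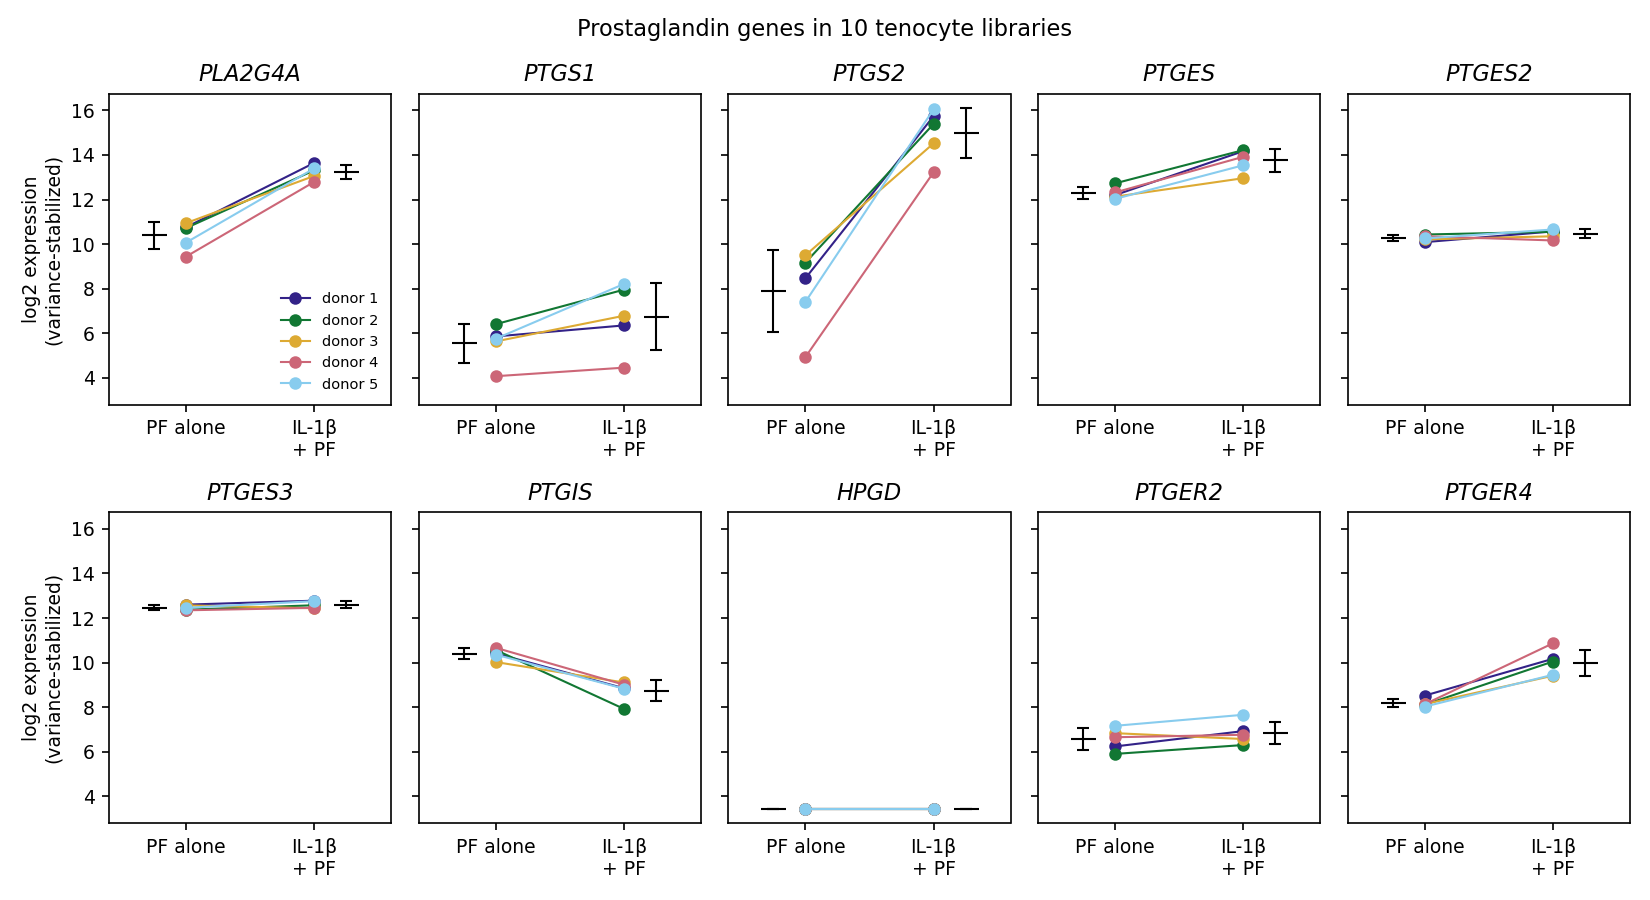
Log2 expression (variance-stabilized, vertical axis) of the 10 genes with PF-06650833 alone and with IL-1β plus PF-06650833 (PF is PF-06650833). Coloured points are libraries and lines join the 2 libraries of a donor, and black marks give the mean and SD of 5 libraries. PTGS2 runs from 4.93 to 9.50 with PF-06650833 alone and from 13.22 to 16.05 with IL-1β, PTGIS falls in all 5 donors, and HPGD lies at 3.43 throughout.

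PLA2G4A encodes cytosolic phospholipase A2, which frees the arachidonic acid. Its normalised counts with PF-06650833 alone were 1710, 1669, 1950, 674 and 1054 in donors 1 to 5. With IL-1β plus PF-06650833 they were 12814, 10170, 8532, 7095 and 10792. The lowest library with IL-1β stood well above the highest without it, and the mean was 7.0 times higher. On the log2 scale PLA2G4A rose from 10.39 ± 0.62 to 13.24 ± 0.33 (SD, n = 5), giving a log2 fold change of 2.86 (standard error, SE, 0.27, limma adjusted p = 1.71e-04). The rise was seen in 5 of 5 donors, by 2.12 to 3.36, and ranked 112 among the increases of all tested genes.

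PTGS2, the inducible cyclooxygenase, changed most of the 10 genes. Its normalised counts with PF-06650833 alone were 332, 553, 701, 12.7 and 149 in donors 1 to 5. With IL-1β plus PF-06650833 they were 54813, 42945, 23488, 9540 and 67659. The gene was thus detected in every donor without the cytokine, at levels that differed widely between donors, and the mean count was 114 times higher with IL-1β. In log2 expression the group means were 7.89 ± 1.84 and 14.98 ± 1.14 (SD, n = 5). The log2 fold change of 7.09 (SE 0.82, 95% confidence interval 5.29 to 8.90, limma adjusted p = 4.23e-04) was the sixth largest increase among the tested genes. Donor 4 was lowest in both groups, at 4.93 and 13.22, and its log2 difference of 8.30 was second to that of donor 5 (8.64). In normalised counts its fold was 754 times, on a baseline of 12.7, and that of donor 5 was 455 times. Donor 3 was the highest with PF-06650833 alone and had the smallest change on both scales, 33.5 times in normalised counts.

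PTGS1, the cyclooxygenase regarded as constitutive, was read at low depth. Normalised counts with PF-06650833 alone were 38.5, 64.7, 30.5, 2.18 and 34.6 in donors 1 to 5, and 61.6, 228, 89.9, 5.69 and 275 with IL-1β plus PF-06650833. The groups overlapped, and each donor had the higher value with IL-1β, by 0.38 to 2.46 on the log2 scale. PTGS1 was at 5.55 ± 0.87 and 6.75 ± 1.5 (SD, n = 5), with a log2 fold change of 1.21 that did not pass the test (SE 0.67, 95% confidence interval -0.27 to 2.69, limma adjusted p = 0.262). With the donor as a block, in which each donor is compared with itself, PTGS1 was called (SE 0.31, limma adjusted p = 0.0289), as was 8.26% of all tested genes. It was also called without the IL-1β library of donor 4, the donor with the fewest PTGS1 reads (log2 fold change 1.78, adjusted p = 0.0374). The other 14 fits with a library or donor removed did not call it.

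**Figure D2:**
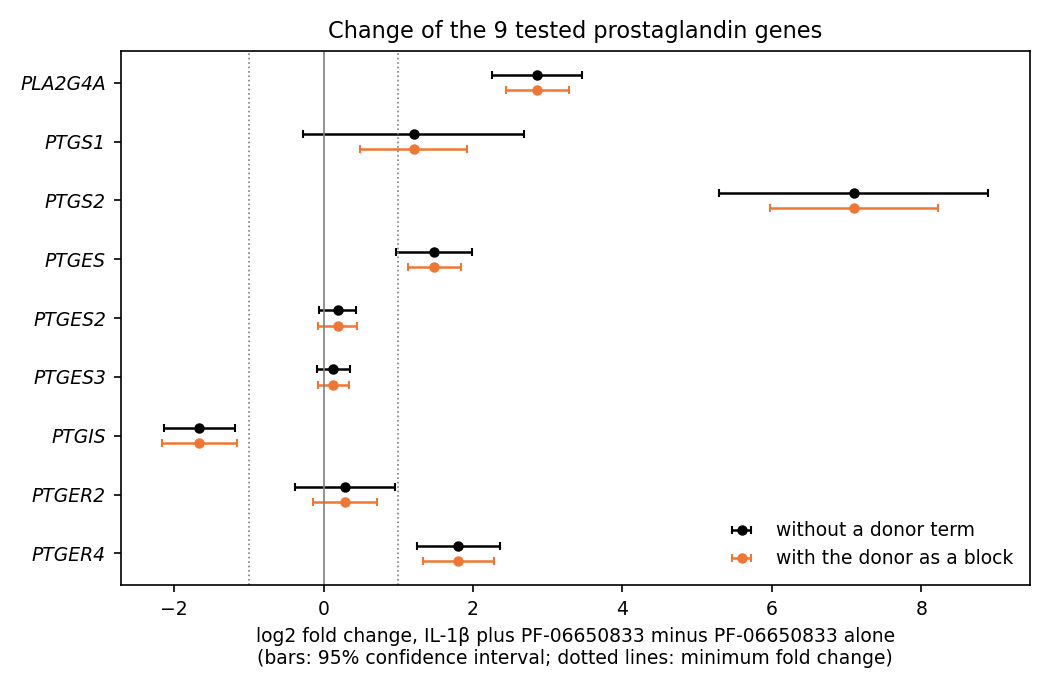
Log2 fold change (horizontal axis, IL-1β plus PF-06650833 minus PF-06650833 alone) of the 9 tested genes, with 95% confidence intervals from limma without a donor term (black) and with the donor as a block (orange). The interval of PTGS1 reaches from -0.27 to 2.69 without the donor term and from 0.49 to 1.93 with it, and those of PTGES2 and PTGES3 lie within the dotted lines at the minimum fold change.

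Of 3 enzymes that convert PGH2 to PGE2, PTGES was the one called. PTGES encodes the microsomal synthase that is induced together with PTGS2 in inflamed tissues. Its normalised counts were 4679, 6753, 4454, 5085 and 4154 in donors 1 to 5 with PF-06650833 alone and 18411, 19032, 7934, 15445 and 11873 with IL-1β. The groups did not overlap, although donor 3 with IL-1β came close to donor 2 without it. The log2 fold change was 1.48 (SE 0.23, limma adjusted p = 0.00220), from 12.28 ± 0.27 to 13.76 ± 0.52 (SD, n = 5), and the mean normalised count was 2.89 times higher.

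PTGES2, another membrane-associated synthase, ranged from 10.09 to 10.43 on the log2 scale with PF-06650833 alone and from 10.17 to 10.66 with IL-1β. Its log2 fold change was 0.19 (95% confidence interval -0.06 to 0.44, limma adjusted p = 0.288), and it was higher in 4 of 5 donors. PTGES3, the cytosolic synthase that also serves as the HSP90 co-chaperone p23, ranged from 12.35 to 12.60 and from 12.44 to 12.78. Its log2 fold change was 0.13 (95% confidence interval -0.08 to 0.35, limma adjusted p = 0.415), again higher in 4 of 5 donors. Both intervals exclude a log2 change of 1, whereas that of PTGS1 includes it.

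PTGIS, the prostacyclin synthase, went the other way. Its normalised counts were 1344, 1498, 1022, 1604 and 1293 in donors 1 to 5 with PF-06650833 alone and 440, 222, 531, 495 and 434 with IL-1β plus PF-06650833. Every library with IL-1β lay below every library without it, and the mean was 3.19 times lower. The log2 expression fell from 10.41 ± 0.25 to 8.75 ± 0.47 (SD, n = 5), with a log2 fold change of -1.66 (SE 0.22, limma adjusted p = 7.95e-04). The fall within a donor was smallest in donor 3, by 0.92, and largest in donor 2, by 2.64.

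HPGD encodes 15-hydroxyprostaglandin dehydrogenase, the main enzyme of prostaglandin inactivation. It was listed at 0 in all 10 libraries, as were 7898 genes of the table, and therefore was not tested. All 10 of a set of housekeeping genes were detected in each library. At these depths a count of 0 allows up to 3 reads per library, for counting error only.

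The PGE2 receptors EP2 and EP4 both raise cyclic AMP (cAMP) in the cell. PTGER4, the gene of EP4, had normalised counts of 346, 255, 261, 259 and 239 in donors 1 to 5 with PF-06650833 alone and of 1131, 1037, 660, 1844 and 680 with IL-1β. The groups did not overlap, and the mean was 3.94 times higher with IL-1β. The log2 fold change was 1.81 (SE 0.25, limma adjusted p = 0.00120), from 8.19 ± 0.19 to 9.99 ± 0.60 (SD, n = 5), and the largest rise was that of donor 4, by 2.73.

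PTGER2, the gene of EP2, had normalised counts of 55.5, 40.3, 93.7, 80.2 and 123 in donors 1 to 5 with PF-06650833 alone and of 101, 58.9, 74.9, 88.1 and 181 with IL-1β. The groups overlapped broadly. Donor 5 was highest and donor 2 lowest in both of them. Its log2 fold change was 0.29 (95% confidence interval -0.39 to 0.96, limma adjusted p = 0.588, and 0.308 with the donor as a block), with 4 of 5 donors higher. The difference between the changes of PTGER2 and PTGER4 was not tested.

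**Figure D3:**
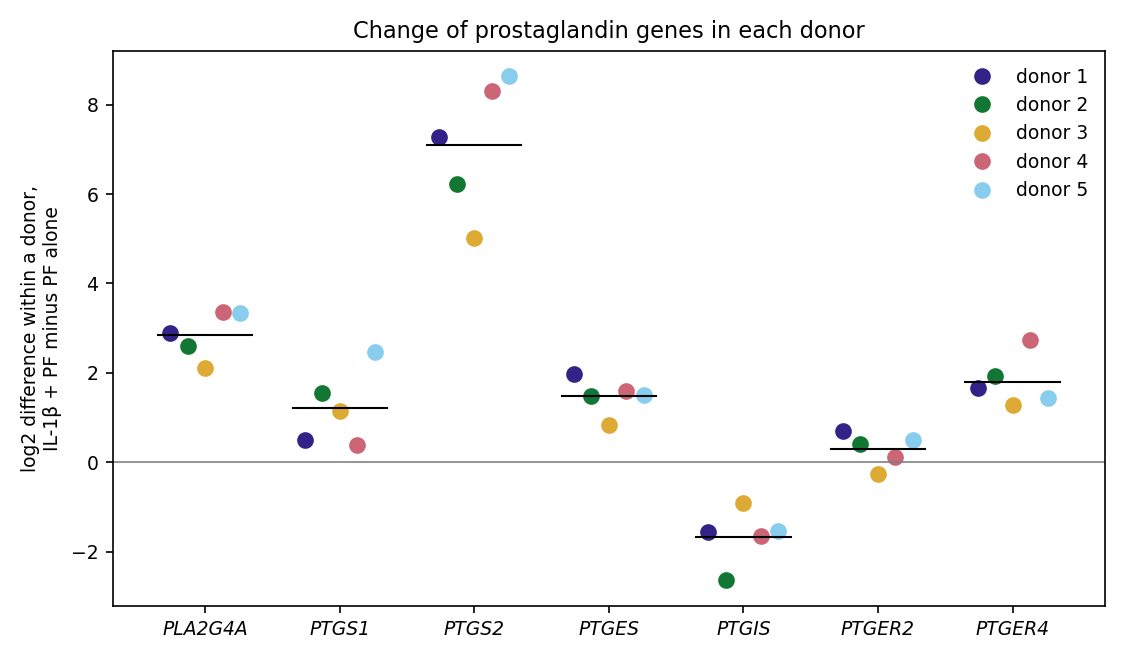
Log2 difference within each donor (vertical axis, IL-1β plus PF-06650833 minus PF-06650833 alone) for 7 of the genes. Points are donors and the black line is their mean. Donor 3 lies nearest to 0 for PLA2G4A, PTGS2, PTGES, PTGIS and PTGER4, with a PTGS2 change of 5.02 against 6.23 to 8.64 in the other donors.

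Donors differed in how far the pathway moved. Donor 3 had the smallest change for 5 of the 5 differentially expressed genes, the decrease of PTGIS included. In this donor the log2 difference was 5.02 for PTGS2, 2.12 for PLA2G4A, 1.27 for PTGER4 and 0.83 for PTGES, and PTGIS fell by 0.92. This was not particular to these genes, since donor 3 had the smallest change in 50.5% of all 1202 differentially expressed genes, against 8.90% to 21.8% for each of the other donors. The median change of those 1202 genes in the called direction was 1.10 in donor 3 and 1.5 to 1.96 in the others. Donor 4 had the lowest PTGS1, PTGS2 and PLA2G4A of each group.

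In a RefSeq gene table of another horse assembly (TB-T2T), used for names and gene order only, PTGS2 and PLA2G4A are next to each other with 0 protein-coding genes between them. All 10 genes were found in that table. Patterns over the 10 libraries were compared with that of PTGS2 among tested genes with a symbol rather than a LOC number. The measure was the root mean square difference of values centred on each gene's mean, which takes in the size of the group change. The closest were CXCL6 (1.27 on the log2 scale), EDNRB (1.33), CXCL1 (1.33), LIF (1.35) and LIPG (1.41). CXCL6 and CXCL1 encode chemokines that draw neutrophils, LIF a cytokine of the interleukin-6 family, EDNRB the endothelin receptor B and LIPG endothelial lipase. CXCL6 and CXCL1 are related genes, and whether reads of one were assigned to the other was not tested. PTGS2 moved by 7.09, between the changes of CXCL6 (8.32) and CXCL1 (6.29), and above those of LIPG (5.74), EDNRB (5.02) and LIF (4.99).

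The wider pathway was followed in 5 lists of other phospholipases, prostanoid synthases, transport and breakdown genes, receptors and lipoxygenase genes. The data held 52 such genes. Tests were possible for 38, of which 5 were called higher and 1 lower, where 3.11% and 3.57% of all tested genes were. PTGDS, one of the 5, could hardly have come out otherwise, as given with its values. With the donor as a block the calls were 6 higher and 2 lower, against 8.26% of all tested genes in either direction. The median log2 fold change of these 38 genes was -0.02, and 18 of them had a positive one. Without donor 1, donor 2 or donor 5 the number called was 3 in each case, and over all tested genes it fell from 1202 to 762, 790 and 778.

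Among 11 phospholipases A2 and regulators, the secreted phospholipase PLA2G2A was the only one called. Its normalised counts were 52.8, 91.5, 140, 307 and 246 in donors 1 to 5 with PF-06650833 alone and 1343, 276, 1158, 10916 and 335 with IL-1β. The groups overlapped, and donor 4 with IL-1β stood above all others. The log2 fold change of 2.80 (SE 0.86) passed narrowly (limma adjusted p = 0.0497, higher in 5 of 5 donors). It was lost in 11 of 15 fits with a library or donor removed, all but those without donor 4 or without the IL-1β library of donor 2, 4 or 5, with an adjusted p of 0.0609 to 0.196. Those fits had no donor term, and with the donor as a block and all libraries kept PLA2G2A was called (limma adjusted p = 0.0175). ANXA1, which encodes the phospholipase inhibitor annexin A1, had a log2 fold change of -0.49 (limma adjusted p = 0.0301), below the minimum fold change.

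Of the other prostanoid synthases, PTGDS, the lipocalin-type prostaglandin D2 synthase, was called on few reads. It was at 0 in 4 libraries with PF-06650833 alone and at 3.25 normalised counts in donor 4, and at 11.9, 13.4, 8.90, 22.6 and 6.92 with IL-1β in donors 1 to 5. PTGDS passed the filter only through the IL-1β group, detected in all 5 of its libraries and in 1 of the others, so that its test had to find a difference and is not given. PTGDR, the gene of a prostaglandin D2 receptor, was at 5.92, 4.00, 17.8, 0 and 12.7 normalised counts with PF-06650833 alone and at 79.0, 366, 76.7, 32.7 and 1295 with IL-1β. Its libraries did not overlap, but with IL-1β they spread over a wide range that donors 2 and 5 topped (log2 fold change 3.12, SE 0.77, limma adjusted p = 0.0198). The call of PTGDR was lost without donor 1 (adjusted p = 0.0641), without donor 2 (0.10) and without the IL-1β library of donor 2 (0.0534). It was called with the donor as a block and all libraries kept (limma adjusted p = 0.00753).

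Of 7 tested genes among the other prostanoid receptors and their partners, PTGFRN, a regulator of the prostaglandin F2 alpha receptor, was lower. It ranged from 12.41 to 12.81 on the log2 scale with PF-06650833 alone and from 11.02 to 11.97 with IL-1β (log2 fold change -1.06, SE 0.18, limma adjusted p = 0.00280). Without donor 5 or without its IL-1β library the change was -0.88 and -0.92, under the minimum. The receptor gene PTGFR itself had a log2 fold change of -0.41 and the prostacyclin receptor gene PTGIR of -0.29, and neither passed (adjusted p = 0.543 and 0.637 from limma).

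Among genes of transport and breakdown, ZADH2, which encodes a prostaglandin reductase, rose from 11.04 ± 0.30 to 12.70 ± 0.55 (SD, n = 5) on the log2 scale (log2 fold change 1.66, SE 0.25, limma adjusted p = 0.00159). ABCC4, an exporter that carries prostaglandins among other substrates, ranged from 7.73 to 8.62 with PF-06650833 alone and from 8.89 to 10.39 with IL-1β (log2 fold change 1.12, adjusted p = 0.0222). That call was lost without any one of the 5 donors (log2 fold changes from 0.92 to 1.29, adjusted p from 0.0293 to 0.0777), without the PF-06650833 library of donor 3 (0.99) and without the IL-1β library of donor 4 (0.88). ABCC4 was called with the donor as a block and all libraries kept (limma adjusted p = 0.0185). SLCO2A1, the prostaglandin uptake transporter, was lower in 5 of 5 donors, with normalised counts of 18.8, 266, 18.7, 78.9 and 73.1 against 0, 57.1, 6.99, 2.86 and 14.2. It did not pass without the donor term (log2 fold change -1.67, limma adjusted p = 0.0996), and it was called with the donor as a block (adjusted p = 0.00441).

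None of 11 tested lipoxygenase and leukotriene genes was called by limma (0 genes), and 4 had an unadjusted p below 0.05, as had 29.7% of all tested genes. ALOX5, the gene of 5-lipoxygenase, was near the value of 0 reads in both groups, at 3.92 and 3.91. With the donor as a block CYSLTR2, a leukotriene receptor gene, was called (log2 fold change 1.13, limma adjusted p = 0.020, and 0.148 without the block).

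**Figure D4:**
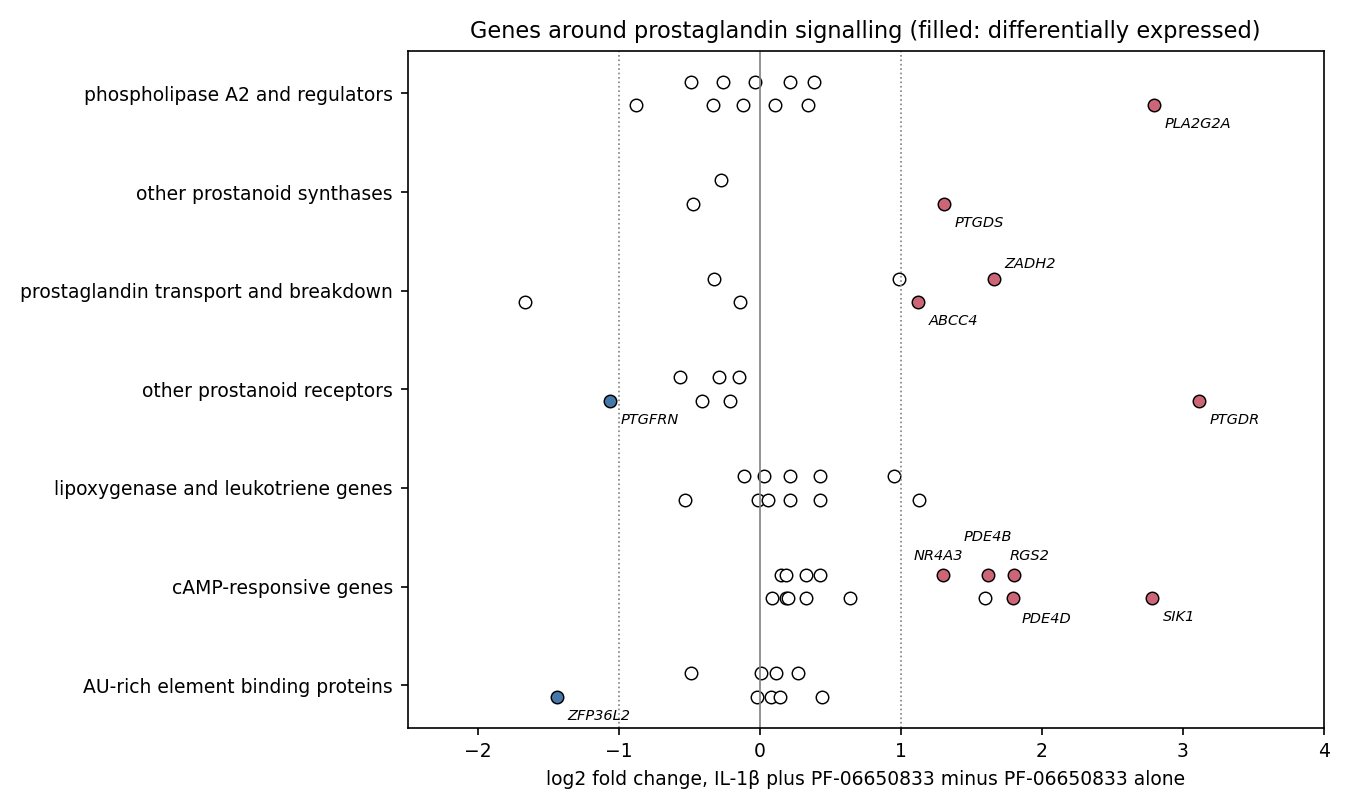
Log2 fold change (horizontal axis, IL-1β plus PF-06650833 minus PF-06650833 alone) of the tested genes of 7 lists around the pathway, 1 point per gene. Filled points were differentially expressed without a donor term, red higher and blue lower, and dotted lines mark the minimum fold change. PTGDS, one of the filled points, passed the filter only through the IL-1β group. All 15 tested cAMP-responsive genes lie right of 0, and 5 of them were called.

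Genes that respond to cAMP were followed because EP2 and EP4 signal through it, although other receptors do so too. The data hold no measure of PGE2 or cAMP, and a link of these genes to EP2 or EP4 was not tested. Of 15 tested genes of this list 5 were differentially expressed and all 5 were higher, where 3.11% of all tested genes were, and with the donor as a block there were 6, where 8.26% of all tested genes were called. All 15 had a positive log2 fold change, also under quantile normalization, centring on the median and log2(normalised count + 1), while 49.3% of all tested genes had one, and the median of the list was 0.42. On log2(normalised count + 1) 4 were called, without RGS2 (limma adjusted p = 0.0550). The phosphodiesterase gene PDE4D rose from 11.09 ± 0.60 to 12.89 ± 0.28 (SD, n = 5), with a log2 fold change of 1.8 (limma adjusted p = 0.00147), and its relative PDE4B had one of 1.62 (adjusted p = 0.0263). Both encode enzymes that break down cAMP. The kinase gene SIK1 had a log2 fold change of 2.78 (adjusted p = 0.00504), and the nuclear receptor gene NR4A3 of 1.30 (adjusted p = 0.0395). RGS2, a regulator of G protein signalling that the rule for named genes did not take in, was at 1.8 (adjusted p = 0.0456).

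The calls of PDE4D and SIK1 were kept in all 15 fits with a library or donor removed, none of which had a donor term. Those of NR4A3, PDE4B and RGS2 were lost without donor 1, 2, 3 or 5, with adjusted p-values from 0.0512 to 0.182. They were lost too without the IL-1β library of donor 2 or 5 (0.0535 to 0.11). Those of NR4A3 and RGS2 were also lost without the IL-1β library of donor 1 or the PF-06650833 library of donor 4 (0.0579 to 0.0991). NR4A3 further lost its call without the PF-06650833 library of donor 3 (0.0769), and RGS2 without that of donor 2 (0.0601) or 5 (0.0970) or the IL-1β library of donor 3 (0.0502). NR4A2, a relative of NR4A3, was the further gene called with the donor as a block (log2 fold change 1.6, limma adjusted p = 0.0324, and 0.105 without the block). In that fit, with all libraries kept, the adjusted p was 0.00231 for NR4A3 and 0.0176 for PDE4B.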

How the data were processed

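Polyadenylated RNA of 10 libraries, 5 donors in each of 2 groups, was sequenced. Per the labels and the methods of the study, the authors checked reads with FastQC (0.11.9), quantified transcripts with Salmon (1.8, EquCab3.0, with GC bias correction), summed them to genes and used DESeq2 (1.36). The deposited table holds log2 values of a variance-stabilizing kind, with a common lowest value of 3.43 taken as 0 reads. That scale was inferred from the values, and the normalised counts and depths obtained by inverting it rest on it.

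Genes above 3.43 in at least 5 of 10 libraries (17992) were tested with limma (3.58.1, R 4.3.3), with a mean-variance trend and no donor term, on the deposited values. P-values were adjusted by Benjamini-Hochberg over all tested genes. Fold changes on this scale understate the change of genes with few reads. The donor as a block was an alternative. Both libraries of a donor come from the same animal, and their deviations from the group means correlated at 0.367 to 0.506 in the 5 pairs. Other alternatives were filters, scales, normalizations, variance models, thresholds and leaving out libraries or donors. The fits with libraries or donors left out had no donor term.

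The 10 genes and the lists were chosen with earlier results of these data known. Named were all 10 genes, in each other list the called genes, at most 4 with the smallest adjusted p, and the 5 genes most like PTGS2. Genes with a LOC number in place of a symbol were left out of these 5. RGS2, ANXA1, PTGFR, PTGIR, ALOX5, SLCO2A1, CYSLTR2, NR4A2, ZFP36, ZFP36L1, TNMD, PTPRC, TYROBP, CD14, LAPTM5, PECAM1, TEK, COL1A1, COL1A2, DCN, LUM, MYH11 and MCAM fell outside this rule and were named after their values were seen.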

Additional observations from a re-analysis of the deposited data

Results flagged for a closer look

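Of 68 groups of 5 libraries over 35 genes, 5 held a library far from the other 4 by Dixon's test, where chance gives about 1 in 20 (3.4 groups). PTGIS with IL-1β plus PF-06650833 was lowest in donor 2, at 7.93 on the log2 scale against 8.83 to 9.11 in the other donors. PTGER4 with PF-06650833 alone was highest in donor 1, at 8.52 against 8.03 to 8.14. PTGDS with PF-06650833 alone was at 4.21 in donor 4, or 3.25 normalised counts, and at 0 reads in the other donors. With those values all equal, any single detected library would have been flagged, so the chance rate does not hold for PTGDS. PDE4B with PF-06650833 alone was lowest in donor 4, at 8.26 against 10.53 to 10.84. SIK1 with IL-1β plus PF-06650833 was lowest in donor 5, at 10.04 against 11.27 to 11.64.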

How the results depend on the processing

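All 9 tested genes of the 10 kept their direction under the 27 alternatives run, and PLA2G4A, PTGS2, PTGES, PTGIS and PTGER4 were called in each, with adjusted p-values in limma of 4.54e-05 to 0.0221. The number called among the 10 was 5 or 6, and 6 with the donor as a block, where PTGS1 was added. PTGS1 was also called with the block on log2(normalised count + 1) (adjusted p = 0.0175) and without 1 library. Among the other pathway genes 6 were called, 8 with the donor as a block, 3 at an adjusted p below 0.01, and 3 to 7 when libraries or donors were left out. Each of these counts includes PTGDS, whose test had to find a difference. Over all tested genes 1202 were called, 1486 with the donor as a block, 1809 with the block on log2(normalised count + 1), 2782 with no minimum fold change, 719 at an adjusted p below 0.01, and 762 to 1410 when libraries or donors were left out. The lowest of these counts came without donor 1 (762), donor 5 (778) and donor 2 (790). Depth limits PTGS1, PTGDS and PTGDR, which were read at a few counts in some libraries. It also limits HPGD, where up to 3 reads in a library taken alone cannot be told from 0.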

Other observations

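Transcripts of PTGS2 are known to carry AU-rich elements, bound by proteins that shorten or lengthen the life of a messenger RNA. Of 9 tested genes of such proteins, 1 was differentially expressed, where 6.68% of all tested genes were. ZFP36L2, which encodes a protein that promotes decay of such transcripts, fell from 11.19 ± 0.24 to 9.75 ± 0.47 (SD, n = 5) in log2 expression (log2 fold change -1.44, limma adjusted p = 0.00150), and it was lower in each of the 5 donors. Its relatives ZFP36 and ZFP36L1 had log2 fold changes of 0.27 and -0.49 and did not pass. The median log2 fold change of the 9 genes was 0.08. A link of these genes to the level or the life of PTGS2 transcripts was not tested.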
